A study of Mus musculus with 237 samples.

Results

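The collagen genes are the 44 entries of the deposited expression table whose symbol is Col, a type number, the letter a and a chain number, out of 36186 entries. They comprised 11 fibrillar chains, 6 chains of type IV, 6 of type VI, 9 fibril-associated (FACIT) chains, 4 transmembrane chains, 2 multiplexins, 3 short chains, Col7a1 and 2 others, Col26a1 and Col28a1. No member's symbol stood on more than 1 entry. The table holds single cells of the embryonic mouse kidney, freed by digestion, sorted, captured singly in a Fluidigm C1 device and sequenced. In it, 44 cells were Pax2 mutant cap mesenchyme at E18.5 (the embryonic day), 71 were wild-type interstitium at E18.5, 74 were wild-type cap mesenchyme and its descendants at E18.5, 29 were Pax2 mutant cap mesenchyme at E13.5, and 18 were wild-type cap mesenchyme and its descendants at E13.5. All were of strain "mixed". The Pax2 allele, any Cre driver and the sorting marker are not given in the sources used here, except that the titles of interstitium cells name FoxD1.

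Collagens are secreted proteins built of 3 chains wound into a triple helix. Fibrillar collagens such as types I and III form the banded fibres of connective tissue and are made mainly by fibroblasts and other stromal cells, type IV forms the sheet-like network of basement membranes, and type VI forms beaded filaments near the cell surface. In the developing kidney the cap mesenchyme holds the nephron progenitors and the interstitium is the stroma around them, so collagen transcripts are among the genes by which stroma is commonly recognised. The series asks how Pax2, a transcription factor of the nephron lineage, bears on the boundary between these lineages.

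Because no label names an embryo, a group of cells counts once and the groups were compared without a test. Values are RPKM, a read count divided by transcript length and by the cell's mapped reads, averaged over cells as log2(RPKM + 1) with the SD between cells, and detection means at least 1 RPKM in a cell. Ranges after shares of cells are exact 95% confidence intervals (Clopper-Pearson) and hold the counting error alone. A gene is called higher or lower when 2 group means differ by 1 log2 unit or more, and the share of the 13682 entries detected in at least 5 cells that were called in the same way is given as the background. Of the members, 36 of 44 passed that filter. A mean over cells does not tell fewer cells with a transcript from less of it per cell, so the number of cells is given beside each level.

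Read counts were not used here, so read depth is not known. Genes detected per cell had a median of 3643 in E18.5 mutant, 5178 in interstitium, 5210.5 in E18.5 cap, 4560 in E13.5 mutant and 5566 in E13.5 cap cells. Pax2 itself was detected in 0 of 44 E18.5 mutant cells (which allows up to 6.82%), 18 of 71 interstitium, 56 of 74 E18.5 cap, 17 of 29 E13.5 mutant and 15 of 18 E13.5 cap cells, and the table has a single value for the whole gene. Xist without a Y-linked transcript marked 42 of 44 cells of the E18.5 mutant group, 67 of 74 of the E18.5 cap group and 27 of 29 of the E13.5 mutant group, while a Y-linked transcript alone marked 70 of 71 cells from interstitium and 17 of 18 from E13.5 cap. Sex, the date in the titles and, for E18.5 mutant cells, the pool in the titles thus cannot be told apart from group in the comparisons they differ in. The titles do not say what the date and the pool refer to. The interstitium markers Foxd1, Meis1, Pdgfra, Penk, Tbx18, Dcn and Lum had a summed median log2(RPKM + 1) of 31.3 in E18.5 mutant (10.3 to 45.4), 24.8 in interstitium (1.73 to 44.1), 3.66 in E18.5 cap (0 to 37.2), 9.91 in E13.5 mutant (0 to 32.5) and 7.82 in E13.5 cap cells (0.345 to 38.3). Tbx18 was detected in 10 of 44, 1 of 71, 0 of 74, 4 of 29 and 1 of 18 cells in that order. It was at 0 in all E18.5 cap cells but did not separate them from interstitium. The 5 mural markers (Acta2, Rgs5, Cspg4, Notch3 and Myh11), of cells that also make fibrillar collagen, had summed medians of 6.21, 7.23, 0.522, 1.43 and 0.539 in the same order, and their part in the results was not tested. The 7 nephron progenitor markers (Six2, Cited1, Eya1, Crym, Osr1, Meox1 and Tmem100) had summed medians of 0.496, 2.66, 26.1, 3.52 and 18.8 in the same order of groups, and Cited1 was at 0 in all E18.5 mutant cells. Six2, Cited1, Eya1, Crym and Osr1 were detected in 62, 40, 60, 59 and 50 of 74 E18.5 cap cells. In E18.5 mutant cells they were detected in 1, 0, 1, 2 and 8 of 44. Meox1 and Tmem100 did not separate these groups, with 8 and 14 of 74 E18.5 cap and 3 and 8 of 44 E18.5 mutant cells. With all 7 markers counted, 0 of 44 E18.5 mutant and 59 of 74 E18.5 cap cells had 3 or more of them. Fewer genes of any kind were detected in E18.5 mutant cells, and 18.8% of all entries were called lower in them than in E18.5 cap cells. Six2 was at 1 RPKM or more in 19 of the 71 interstitium cells, and Pdgfra in 8 of the 74 E18.5 cap cells.

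**Figure D1:**
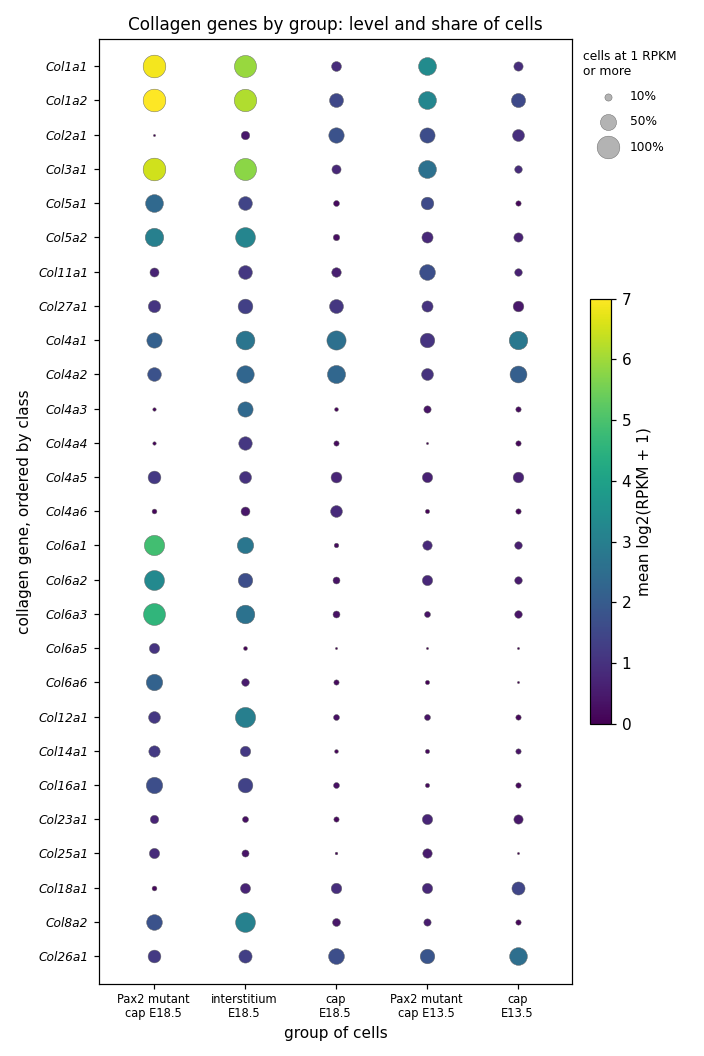
The 27 collagen genes detected in 20% or more of the cells of at least 1 group, in rows by class, across the 5 groups in columns. Dot area is the percentage of cells at 1 RPKM or more and colour is the mean log2(RPKM + 1) over all cells of the group. Col1a1, Col1a2 and Col3a1 are near or above 6 in E18.5 mutant and interstitium cells and below 2 in both cap groups, while Col4a1 and Col4a2 are at like levels in the interstitium and both cap groups.

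The promoters of 4 members whose results are set out below are shown because they stand for different patterns: Col1a2 and Col3a1 were abundant where fibrillar collagen was, and Col4a1 and Col4a2 were detected in every group and share 1 stretch of DNA. Each window runs from 250 bases before to 50 bases after the RefSeq start (GRCm38.p6), written 5′ to 3′ on the gene's strand, at chr6:4505368-4505667 (plus strand) for Col1a2, chr1:45311288-45311587 (plus) for Col3a1, chr8:11312777-11313076 (minus) for Col4a1 and chr8:11312555-11312854 (plus) for Col4a2. Capitals mark 3 short motifs: TATAAA, core of the so-called TATA box, written TTTATA when it lies on the opposite strand; CCAAT, of the box of that name, written ATTGG when on the opposite strand; GGGCGG, core of the GC box, written CCGCCC when on the opposite strand.
Col1a2: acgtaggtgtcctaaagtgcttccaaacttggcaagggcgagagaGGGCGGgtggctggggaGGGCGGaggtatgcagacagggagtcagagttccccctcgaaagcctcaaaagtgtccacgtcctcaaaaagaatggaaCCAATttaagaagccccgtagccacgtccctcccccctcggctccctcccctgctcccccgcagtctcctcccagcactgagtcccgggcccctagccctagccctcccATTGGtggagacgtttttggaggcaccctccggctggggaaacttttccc
Col3a1: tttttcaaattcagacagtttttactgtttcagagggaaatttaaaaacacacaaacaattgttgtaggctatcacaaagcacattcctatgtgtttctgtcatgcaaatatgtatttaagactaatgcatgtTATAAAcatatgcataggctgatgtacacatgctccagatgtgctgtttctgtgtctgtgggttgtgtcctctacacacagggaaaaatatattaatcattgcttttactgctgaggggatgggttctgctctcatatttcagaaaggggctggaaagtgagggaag
Col4a1: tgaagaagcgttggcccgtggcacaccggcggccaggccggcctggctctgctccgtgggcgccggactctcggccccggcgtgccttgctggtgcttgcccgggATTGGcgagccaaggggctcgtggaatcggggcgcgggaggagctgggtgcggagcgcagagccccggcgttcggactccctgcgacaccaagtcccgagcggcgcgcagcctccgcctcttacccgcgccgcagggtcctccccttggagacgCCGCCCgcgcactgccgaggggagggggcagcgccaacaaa
Col4a2: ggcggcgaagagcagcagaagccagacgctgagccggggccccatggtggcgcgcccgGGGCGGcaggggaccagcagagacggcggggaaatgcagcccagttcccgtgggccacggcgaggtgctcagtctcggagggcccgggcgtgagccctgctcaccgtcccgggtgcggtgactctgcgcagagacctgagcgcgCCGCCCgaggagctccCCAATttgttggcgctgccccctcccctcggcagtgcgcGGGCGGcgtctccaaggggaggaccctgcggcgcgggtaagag

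The Col4a1 and Col4a2 starts lay 21 bases apart on opposite strands, and their windows shared 78 bases. At these RefSeq starts the genes overlap, whereas the deposited expression table leaves 2 bases between them. The RefSeq start lay at -79 from the start in that table for Col1a2 and at -24 for Col4a2. Col4a1 held 1 CCAAT motif and 1 GC motif, and Col4a2 held 1 CCAAT motif and 3 GC motifs, with G or C at 74% and 73.7% of positions. Col1a2 held 2 CCAAT motifs and 2 GC motifs, with G or C at 61%. Col3a1 held neither and had 1 TATAAA motif at positions -117 to -112 from the start, with G or C at 37.7%. These are matches of the letters alone, and whether any acts as a promoter box was not tested. Over the 32851 windows of the same length in the RefSeq table, 13.6% held the TATA motif, 37.4% the CCAAT motif and 35.7% the GC motif, on either strand. For the collagen genes, 35 of 44 had a window (38 windows in all), of which 5 held the TATA motif, 13 the CCAAT motif and 23 the GC motif.

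Collagen transcripts made up the largest share of the transcriptome in E18.5 mutant cells and interstitium. The members summed to a median of 0.184% of a cell's RPKM in E18.5 mutant (0.00417% to 1.51%), 0.0993% in interstitium (0.0148% to 3.70%), 0.0141% in E18.5 cap (0.000369% to 0.206%), 0.0338% in E13.5 mutant (0.00135% to 0.256%) and 0.0130% in E13.5 cap cells (0.000207% to 0.157%). The median number of members detected per cell was 12 in E18.5 mutant cells (5 to 18), 13 in interstitium (4 to 21), 5 in E18.5 cap (1 to 15), 6 in E13.5 mutant (1 to 13) and 4.5 in E13.5 cap cells (0 to 12). The ranges of all groups overlapped. E18.5 mutant cells had about as many collagen genes as interstitium cells although fewer genes of any kind were detected in them. Among cells with 3000 to 5000 detected genes the median was 12 in 33 E18.5 mutant, 11 in 35 interstitium, 5 in 26 E18.5 cap and 7 in 17 E13.5 mutant cells.

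**Figure D2:**
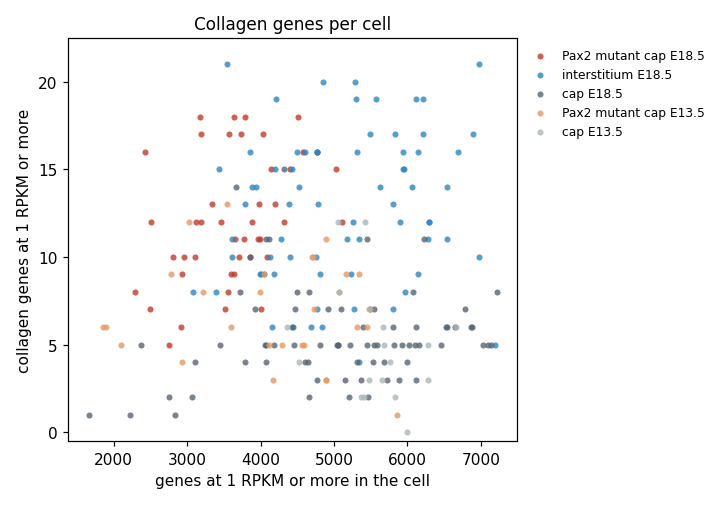
Each point is 1 cell, with all genes reaching 1 RPKM counted on the x axis and those of the 44 collagen genes on the y axis. E18.5 mutant cells lie to the left of most interstitium cells at a like height, with medians of 12 and 13 collagen genes, and cap cells of both ages lie low, with medians of 5 and 4.5.

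Type I and III collagen, the main fibril-forming chains of soft connective tissue, separated E18.5 mutant and interstitium cells from cap cells. Col1a1, which encodes the α1 chain of type I, had a lowest, median and highest value of 1.10, 123 and 1334 RPKM in E18.5 mutant, 0, 82.3 and 5539 in interstitium, 0, 0 and 413 in E18.5 cap, 0, 15.2 and 278 in E13.5 mutant, and 0, 0.126 and 88.4 RPKM in E13.5 cap cells. All 44 E18.5 mutant cells had Col1a1, and most cap cells of either age had none or under 1 RPKM, but the ranges overlapped through a minority of high cap cells. It was detected in 44 of 44 E18.5 mutant cells (100%, 92.0 to 100%), 67 of 71 interstitium (94.4%, 86.2 to 98.4%), 14 of 74 E18.5 cap (18.9%, 10.7 to 29.7%), 18 of 29 E13.5 mutant (62.1%, 42.3 to 79.3%) and 3 of 18 E13.5 cap cells (16.7%, 3.58 to 41.4%).

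Col1a2, the α2 chain of type I, had a lowest, median and highest value of 2.95, 135 and 1896 RPKM in E18.5 mutant, 0.336, 95.6 and 3165 in interstitium, 0, 0.224 and 289 in E18.5 cap, 0.0353, 10.02 and 179 in E13.5 mutant, and 0, 0.270 and 121 RPKM in E13.5 cap cells. Of the E18.5 cap cells 28 reached 1 RPKM, a further 37 lay between 0 and 1, and 9 were at 0, so Col1a2 was found above 0 in more cap cells than Col1a1 was (15 between 0 and 1, 45 at 0). Col3a1, the single chain of type III, had 2.59, 115 and 1211 RPKM in E18.5 mutant, 0, 60.2 and 2020 in interstitium, 0, 0 and 179 in E18.5 cap, 0, 4.6 and 87.4 in E13.5 mutant, and 0, 0.0547 and 303 RPKM in E13.5 cap cells. These 3 genes were detected together in 44 of 44 E18.5 mutant, 66 of 71 interstitium, 9 of 74 E18.5 cap, 11 of 29 E13.5 mutant and 2 of 18 E13.5 cap cells.

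**Figure D3:**
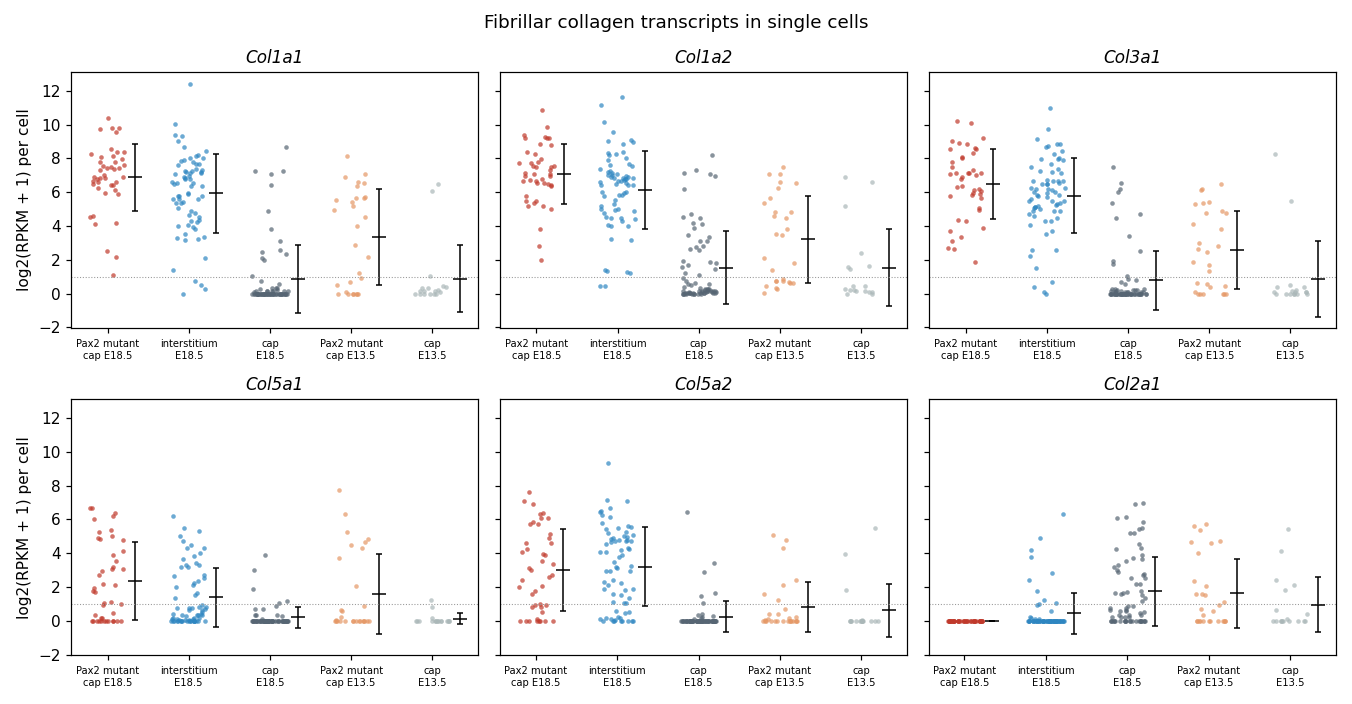
Each point is 1 cell at its log2(RPKM + 1) for Col1a1, Col1a2, Col3a1, Col5a1, Col5a2 and Col2a1, by group. Bars show the mean ± SD over the cells and the dotted line is 1 RPKM. Col1a1, Col1a2 and Col3a1 form a high band in E18.5 mutant and interstitium cells, are spread from near 0 to above 6 in E13.5 mutant cells, and Col2a1 is at 0 in all 44 E18.5 mutant cells.

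The chains of type I were at like levels at the median over cells, with a spread between cells. Where both were detected, the median log2 ratio of Col1a1 to Col1a2 was -0.24 in 44 E18.5 mutant cells and -0.21 in 67 interstitium cells, with interquartile ranges of -1.05 to 0.79 and -1.10 to 0.85. The type I protein is usually built of a pair of α1 chains and 1 α2 chain, and the median RPKM ratio of the transcripts was not such a ratio. A ratio between genes depends on the gene models and counting rule, which are not given. Across cells, which share library scale and detection rate, Spearman's rho between Col1a1 and Col1a2 was 0.592 over 44 E18.5 mutant, 0.695 over 71 interstitium and 0.593 over 29 E13.5 mutant cells.

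Type V collagen, a minor component that regulates fibril width, was less often detected. Col5a2 was found in 29 of 44 E18.5 mutant, 54 of 71 interstitium, 6 of 74 E18.5 cap, 7 of 29 E13.5 mutant and 3 of 18 E13.5 cap cells, with means of 3.01 ± 2.42, 3.2 ± 2.35, 0.25 ± 0.93, 0.81 ± 1.51 and 0.63 ± 1.58 log2(RPKM + 1). Col5a1, its partner chain, was found in 27 of 44, 26 of 71, 5 of 74, 9 of 29 and 1 of 18 cells in the same order, with means of 2.36 ± 2.3, 1.4 ± 1.75, 0.20 ± 0.64, 1.58 ± 2.38 and 0.12 ± 0.34. Col5a2 lies 24624 bases from Col3a1 on chromosome 1 and on the other strand. All 29 E18.5 mutant cells and all 54 interstitium cells with Col5a2 also had Col3a1, which most cells of these groups had.

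Col2a1, the chain of type II collagen known from cartilage, ran the other way. It was detected in 0 of 44 E18.5 mutant cells (which allows up to 6.82%), 10 of 71 interstitium, 34 of 74 E18.5 cap (45.9%, 34.3 to 57.9%), 13 of 29 E13.5 mutant (44.8%, 26.4 to 64.3%) and 5 of 18 E13.5 cap cells. Its mean log2(RPKM + 1) was 0 in E18.5 mutant, 0.45 ± 1.22 in interstitium, 1.75 ± 2.05 in E18.5 cap, 1.64 ± 2.04 in E13.5 mutant and 0.94 ± 1.62 in E13.5 cap cells. No E18.5 mutant cell had any value above 0 (44 at 0), whereas the highest E18.5 cap cell reached 127 RPKM. In interstitium it was found in 9 of 19 cells with Six2 and in 1 of 52 without. Of the other cartilage markers, Sox9 was detected in 16 of 44 E18.5 mutant, 11 of 71 interstitium, 30 of 74 E18.5 cap, 17 of 29 E13.5 mutant and 6 of 18 E13.5 cap cells, and Hapln1 in 3, 7, 1, 3 and 2 cells in the same order. Matn1 and Comp were at 0 in every cell of every group and Acan in both mutant groups. No cell had 3 or more of these 5 markers, and the highest summed log2(RPKM + 1) was 12.8 in E18.5 mutant, 7.77 in interstitium, 7.35 in E18.5 cap, 10.7 in E13.5 mutant and 9.68 in E13.5 cap cells.

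Col11a1, a chain of type XI that assembles with type II in cartilage, was most often found in E13.5 mutant cells, in 14 of 29. It was detected in 7 of 44 E18.5 mutant, 26 of 71 interstitium, 13 of 74 E18.5 cap and 2 of 18 E13.5 cap cells. Of the 34 E18.5 cap cells with Col2a1, 7 also had Col11a1. Col27a1, another fibrillar chain of cartilage, was detected in 13 of 44 E18.5 mutant, 30 of 71 interstitium, 28 of 74 E18.5 cap, 7 of 29 E13.5 mutant and 4 of 18 E13.5 cap cells, with means of 0.45 to 1.33 and no call in any comparison. The other fibrillar members, Col5a3, Col11a2 and Col24a1, were detected in 14, 1 and 21 cells, all groups together.

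The type VI chains had their highest means in E18.5 mutant cells, Col6a4 from 1 detected cell. Col6a1 had a lowest, median and highest value of 0, 40.3 and 578 RPKM in E18.5 mutant, 0, 3.62 and 1015 in interstitium, 0, 0 and 66.2 in E18.5 cap, 0, 0 and 64.8 in E13.5 mutant, and 0, 0 and 27.6 RPKM in E13.5 cap cells. Detection was in 35 of 44 (79.5%, 64.7 to 90.2%), 37 of 71 (52.1%, 39.9 to 64.1%), 3 of 74 (4.05%, 0.844 to 11.4%), 5 of 29 (17.2%, 5.85 to 35.8%) and 2 of 18 cells (11.1%, 1.38 to 34.7%) in that order. Cells at 0 occurred in every group, and the single highest cell was an interstitium cell.

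Col6a3, the largest chain of the classical α1α2α3 trimer, had 0, 27 and 445 RPKM in E18.5 mutant, 0, 6.59 and 69.4 in interstitium, 0, 0 and 78.6 in E18.5 cap, 0, 0 and 56.9 in E13.5 mutant, and 0, 0 and 30.6 RPKM in E13.5 cap cells. It was detected in 41 of 44 E18.5 mutant and 48 of 71 interstitium cells, and in 7 of 74, 2 of 29 and 2 of 18 cells of the other groups. Col6a2 was detected in 34 of 44 E18.5 mutant, 29 of 71 interstitium, 7 of 74 E18.5 cap, 6 of 29 E13.5 mutant and 2 of 18 E13.5 cap cells. All 3 chains of the trimer were found together in 25 of 44 E18.5 mutant and 19 of 71 interstitium cells, and in 1 cell of each other group.

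**Figure D4:**
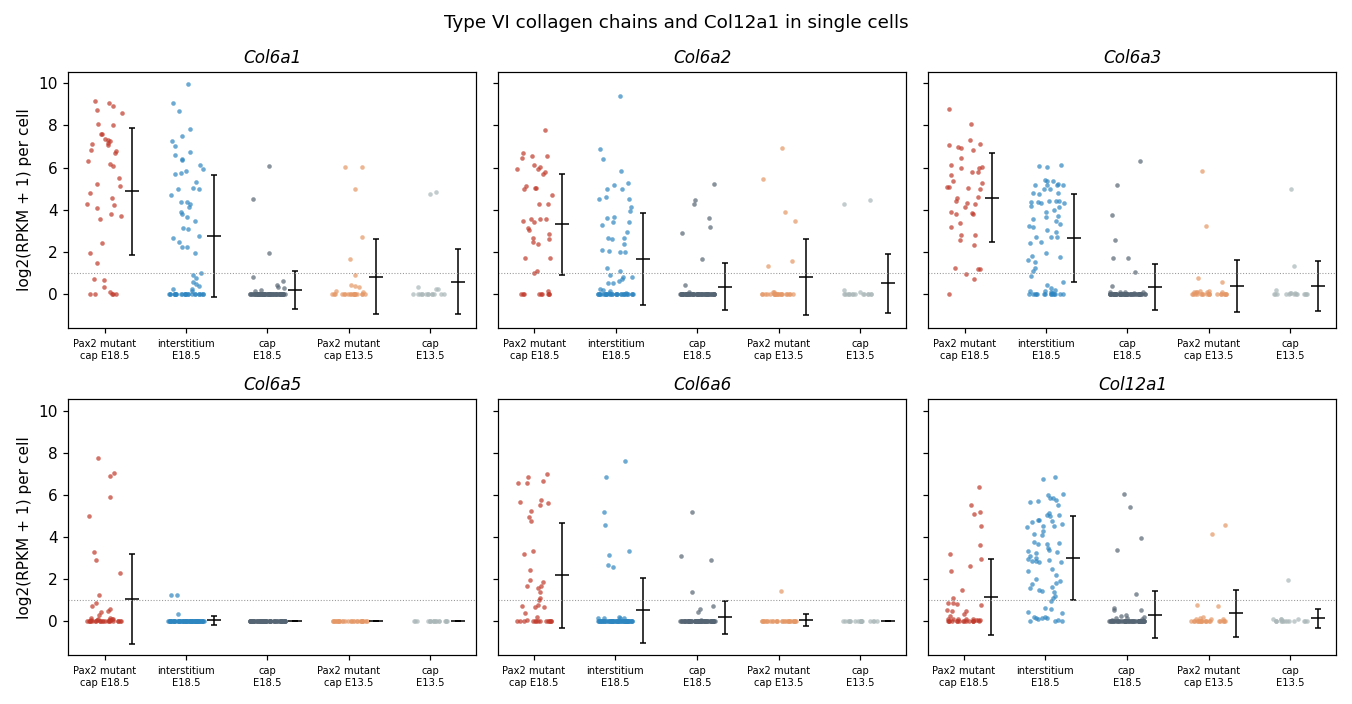
Each point is 1 cell at its log2(RPKM + 1) for 5 chains of type VI and for Col12a1, by group, with the mean ± SD as bars and 1 RPKM as a dotted line. Col6a1, Col6a2 and Col6a3 are highest in E18.5 mutant cells, with means of 4.87, 3.30 and 4.58, while Col12a1 is highest in interstitium cells, with a mean of 3.0.

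Col6a5 and Col6a6 encode alternative chains related to α3. Col6a6 was detected in 23 of 44 E18.5 mutant cells (52.3%, 36.7 to 67.5%), against 8 of 71 interstitium, 4 of 74 E18.5 cap, 1 of 29 E13.5 mutant and 0 of 18 E13.5 cap cells (up to 16.7%). Col6a5 was detected in 9 of 44 E18.5 mutant and 2 of 71 interstitium cells, and the E18.5 cap, E13.5 mutant and E13.5 cap cells were all listed at 0. A further 16 E18.5 mutant cells had Col6a5 above 0 but under 1 RPKM. Of the 9 E18.5 mutant cells with Col6a5, 7 also had Col6a6. The genes Col6a6, Col6a5 and Col6a4 follow one another on the minus strand of chromosome 9, with 27984 and 29674 bases between them, and Col6a4, the remaining chain, was detected in 2 of all grouped cells.

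Of the type IV chains, Col4a1 and Col4a2 were not called higher in interstitium or E18.5 mutant than in E18.5 cap cells, unlike Col1a1, Col3a1 and Col6a1. Col4a1 and Col4a2 form the common α1α1α2 network of nearly all basement membranes. Col4a1 was detected in 20 of 44 E18.5 mutant (45.5%, 30.4 to 61.1%), 49 of 71 interstitium (69%, 56.9 to 79.5%), 53 of 74 E18.5 cap (71.6%, 59.95 to 81.5%), 12 of 29 E13.5 mutant (41.4%, 23.5 to 61.1%) and 12 of 18 E13.5 cap cells (66.7%, 40.99 to 86.7%). Both mutant groups were below both cap groups in this share, with intervals that overlapped. The means were 2.11 ± 2.74, 2.73 ± 2.2, 2.57 ± 1.89, 1.07 ± 1.23 and 2.79 ± 2.32 log2(RPKM + 1) in that order.

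Col4a2 was detected in 16 of 44 E18.5 mutant, 42 of 71 interstitium, 47 of 74 E18.5 cap, 8 of 29 E13.5 mutant and 10 of 18 E13.5 cap cells, with means of 1.76 ± 2.58, 2.27 ± 2.14, 2.3 ± 2.0, 1.01 ± 1.77 and 2.09 ± 2.01. Many cells had only 1 of Col4a1 and Col4a2 at 1 RPKM or more. Depth per cell is unknown, so the undetected chain is not shown to be absent, and a bearing of the shared promoter windows was not tested. Both were found in 12 E18.5 mutant, 33 interstitium, 35 E18.5 cap, 6 E13.5 mutant and 9 E13.5 cap cells. Only Col4a1 was found in 8, 16, 18, 6 and 3 cells and only Col4a2 in 4, 9, 12, 2 and 1 cells in the same order. Spearman's rho between them was 0.581 over 44 E18.5 mutant, 0.243 over 71 interstitium, 0.364 over 74 E18.5 cap, 0.679 over 29 E13.5 mutant and 0.436 over 18 E13.5 cap cells. Whether counting used strand is not given in the sources used here, so reads at the joint start cannot be assigned to either gene.

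**Figure D5:**
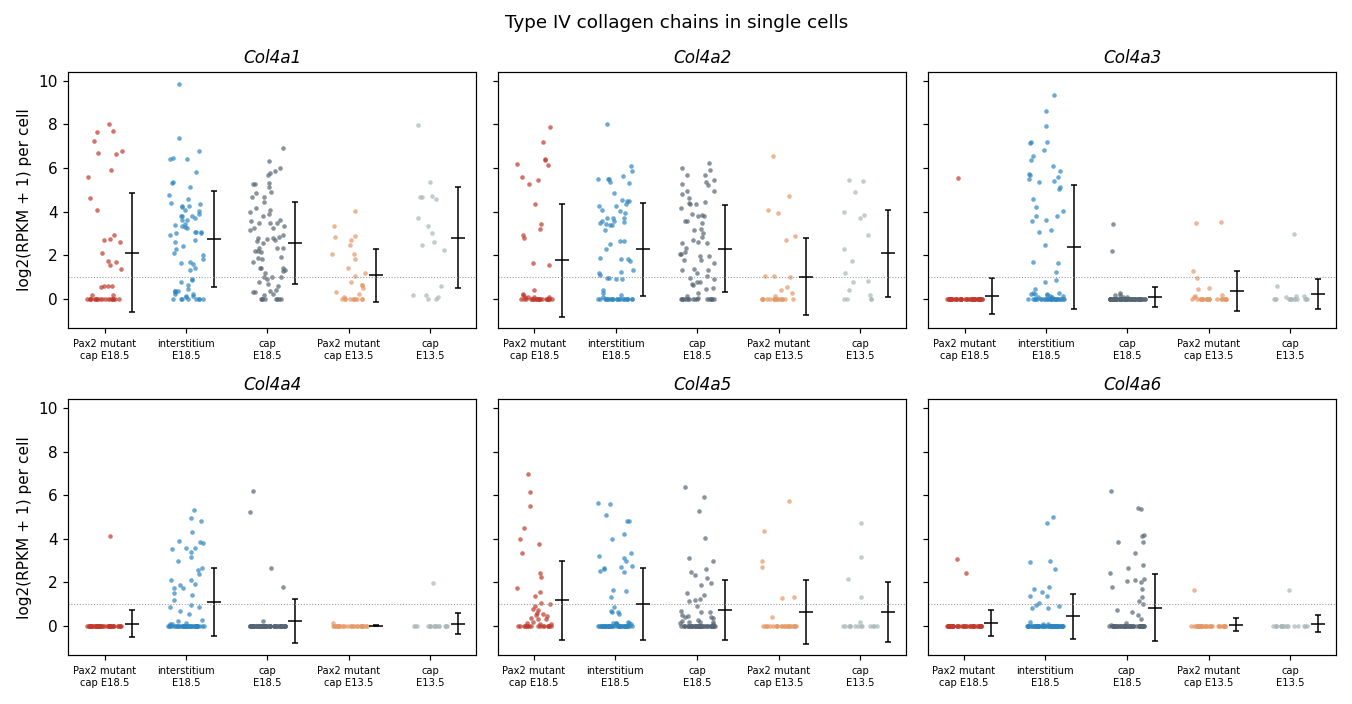
Each point is 1 cell at its log2(RPKM + 1) for the 6 type IV chains, by group, with the mean ± SD as bars and 1 RPKM as a dotted line. Col4a1 and Col4a2 are spread in every group, while Col4a3 and Col4a4 are found mainly in interstitium cells, in 32 and 25 of 71.

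Col4a3 and Col4a4 encode chains of the α3α4α5 network, which is best known from the mature glomerular basement membrane, where podocytes make it. Col4a3 had a median of 0.194 RPKM and a highest value of 652 RPKM in interstitium, against a median of 0 in every other group and highest values of 45.4 in E18.5 mutant, 9.72 in E18.5 cap, 10.3 in E13.5 mutant and 6.82 RPKM in E13.5 cap cells. It was detected in 1 of 44 E18.5 mutant, 32 of 71 interstitium (45.1%, 33.2 to 57.3%), 2 of 74 E18.5 cap, 3 of 29 E13.5 mutant and 1 of 18 E13.5 cap cells. Col4a4 was detected in 1 of 44, 25 of 71, 4 of 74, 0 of 29 and 1 of 18 cells. The genes lie head to head on chromosome 1, 71 bases apart.

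Both chains were found together in 17 interstitium cells, and Col4a3, Col4a4 and Col4a5 together in 8. Of the 32 interstitium cells with Col4a3, 30 had Pdgfra and 5 had Six2. Most interstitium cells had Pdgfra, and Col4a3 was found in 30 of 58 with it and in 2 of 13 without. By Six2, Col4a3 was found in 5 of 19 interstitium cells with it and in 27 of 52 without.

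Col4a5 and Col4a6, a head-to-head pair on the X chromosome with 1342 bases between them, were low throughout. Col4a5 was detected in 14 of 44 E18.5 mutant, 20 of 71 interstitium, 17 of 74 E18.5 cap, 6 of 29 E13.5 mutant and 4 of 18 E13.5 cap cells. Col4a6 was detected in 2 of 44, 11 of 71, 20 of 74, 1 of 29 and 1 of 18 cells in that order. Among E18.5 cap cells it was found in 20 of 62 with Six2 and in 0 of 12 without. Neither passed 1 log2 unit in any comparison.

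Of the FACIT chains, which sit on the surface of fibrils, Col12a1 was the most frequent and was mostly an interstitium transcript. It had a lowest, median and highest value of 0, 0.0896 and 80.8 RPKM in E18.5 mutant, 0, 7.07 and 114 in interstitium, 0, 0 and 65.1 in E18.5 cap, 0, 0 and 22.6 in E13.5 mutant, and 0, 0 and 2.88 RPKM in E13.5 cap cells. Detection was in 12 of 44, 56 of 71, 5 of 74, 2 of 29 and 1 of 18 cells in that order. The E18.5 mutant and interstitium ranges overlapped, with the mutant cells lower at the median.

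Col16a1 was detected in 23 of 44 E18.5 mutant, 30 of 71 interstitium, 5 of 74 E18.5 cap, 1 of 29 E13.5 mutant and 1 of 18 E13.5 cap cells. Col14a1, which binds fibrils of type I, was found in 11 of 44, 15 of 71, 2 of 74, 1 of 29 and 1 of 18 cells. Both were thus at like shares in E18.5 mutant and interstitium cells. The other FACIT members, Col9a1, Col9a2, Col9a3, Col19a1, Col20a1 and Col22a1, were found in 14, 13, 2, 0, 10 and 2 of all grouped cells.

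Col8a2, a short chain that forms hexagonal networks in the eye, was detected in 21 of 44 E18.5 mutant, 54 of 71 interstitium, 9 of 74 E18.5 cap, 3 of 29 E13.5 mutant and 1 of 18 E13.5 cap cells, with means of 1.77 ± 1.91, 3.05 ± 2.26, 0.43 ± 1.16, 0.57 ± 1.72 and 0.12 ± 0.50 log2(RPKM + 1). Its partner Col8a1 was found in 13 of all grouped cells and Col10a1, the chain of hypertrophic cartilage, in 1. Its mean was lower in E18.5 mutant than in interstitium cells, as that of Col12a1 was. Unlike Col12a1 (0.83), it was called higher in E18.5 mutant than in cap cells (1.34).

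Col26a1 and Col18a1, whose C-terminal fragment is endostatin, had their highest shares in E13.5 cap cells. Col26a1 was detected in 14 of 44 E18.5 mutant, 24 of 71 interstitium, 36 of 74 E18.5 cap, 12 of 29 E13.5 mutant and 11 of 18 E13.5 cap cells. Col18a1 was detected in 2 of 44, 14 of 71, 16 of 74, 6 of 29 and 6 of 18 cells. Within the E18.5 cap group Col26a1 was found in 34 of 62 cells with Six2 and 2 of 12 without, and Col18a1 in 16 of 62 and 0 of 12. Within interstitium the same genes were again found more among cells with Six2, Col26a1 in 11 of 19 and 13 of 52 without, and Col18a1 in 9 of 19 and 5 of 52 without.

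The transmembrane chains Col23a1 and Col25a1 were detected in 6 and 9 of 44 E18.5 mutant, 5 and 7 of 71 interstitium, 4 and 1 of 74 E18.5 cap, 6 and 5 of 29 E13.5 mutant, and 3 and 0 of 18 E13.5 cap cells. Col13a1, Col15a1 and Col7a1, the anchoring fibril chain of skin, were found in 9, 11 and 13 of all grouped cells. Col17a1 was never at 1 RPKM, and Col19a1 and Col28a1 were at 0 in all grouped cells.

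In wild-type E18.5 cells, 13 of 44 members were higher in interstitium than in cap, with a background of 4.87% of entries called higher. They were Col1a1, Col1a2, Col3a1, Col5a1 and Col5a2 among the 11 fibrillar chains, Col6a1, Col6a2 and Col6a3 among the 6 of type VI, Col12a1, Col14a1 and Col16a1 among the 9 FACIT chains, Col4a3 and Col8a2. The mean log2(RPKM + 1) of Col1a1 was 5.93 ± 2.36 in interstitium and 0.88 ± 2.0 in cap, 5.05 apart, and that of Col3a1 was 5.79 ± 2.21 in interstitium and 0.77 ± 1.77 in cap, 5.01 apart. The SD between cells was below the difference for these and for Col1a2, Col5a2, Col6a3, Col12a1 and Col8a2, while for Col5a1 (1.2), Col14a1 (1.08), Col16a1 (1.08), Col6a1 (2.54), Col6a2 (1.30) and Col4a3 (2.27) the SD in interstitium was above it. Col2a1 was the only member called lower, by 1.30, with a background of 2.21%. The median difference was 0.19 over the 44 members, 0.32 over the 36 that passed the filter and 0.01 over all tested entries. The filter drops members that are low everywhere, so a median over the 36 is a description only.

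The 22 interstitium cells in pool 2, the pool of all E18.5 cap cells, were also set against them alone. Col1a1 averaged 5.89 and Col3a1 6.13 in them, 5.01 and 5.36 above the cap cells, and 13 members were called higher, of which 12 are among those listed above. Col16a1 was lost (0.87 in pool 2) and Col4a4 gained (1.17 in pool 2, against 0.90 over all 71 cells), and Col2a1 stayed the 1 member called lower. With 52 interstitium cells without Six2 set against 66 cap cells without Pdgfra, an alternative chosen after seeing the data, 14 members were called higher, all 13 of those above and Col4a4.

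Fibrillar chains in cap cells went with stromal markers. Col1a1 was detected in 6 of 8 E18.5 cap cells with Pdgfra and in 8 of 66 without, and Col1a2 in 7 of 8 and 21 of 66. By Six2, Col1a1 was found in 7 of 62 cap cells with it and 7 of 12 without. The E13.5 cap cell with the most Col3a1, at 303 RPKM, was the single cell of its group with Pdgfra. Where a cap cell lacked Pdgfra, mean log2(RPKM + 1) of Col1a1 was 0.42 at E18.5 and 0.55 at E13.5, against 4.69 in the 8 E18.5 cap cells with it.

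Between E18.5 mutant and cap cells, 13 members were higher in mutant cells, with a background of 3.66%. They comprised the same 5 fibrillar chains, Col6a1, Col6a2, Col6a3, Col6a5 and Col6a6, Col14a1, Col16a1 and Col8a2. The comparison shares its cap cells with that of interstitium and cap, so the 2 are given side by side only. Col1a1 averaged 6.88 ± 1.97 in mutant and 0.88 ± 2.0 in cap cells, a difference of 6.0, where interstitium stood 5.05 above cap. Col6a3 averaged 4.58 ± 2.10 in mutant and 0.31 ± 1.09 in cap cells, a difference of 4.26, where interstitium stood 2.34 above cap. Col4a3 averaged 0.13 ± 0.83 in mutant and 0.09 ± 0.47 in cap cells, a difference of 0.04, where interstitium stood 2.27 above. Col2a1 was the only member called lower, by 1.75, while 18.8% of all entries were. The median difference was 0.12 over the 44 members, 0.55 over the 36 that passed the filter and -0.25 over all tested entries. With the 66 cap cells without Pdgfra, 14 members were called higher, with Col12a1 added.

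The median over all tested entries moved with the scaling. For mutant minus cap and mutant minus interstitium at E18.5 it was -0.25 and -0.25 as deposited, -0.21 and -0.24 with every cell at the same RPKM sum, and -0.03 and -0.05 after median-ratio scaling. In E13.5 mutant minus cap cells it was -0.28, -0.27 and -0.04. Relative to the median as deposited, Col1a1 in E18.5 mutant cells stood further above cap and interstitium than the differences printed here, and Col4a1 less far below them.

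Between E18.5 mutant and interstitium cells, collagen genes were called in both directions. Mutant cells were higher in 5 of 44 members (background 1.64%), which were 5 of the 6 type VI chains. They were lower in 4 of 44, Col4a3, Col4a4, Col12a1 and Col8a2, a smaller share than that of all entries called lower (background 18.6%). Col6a1 averaged 4.87 ± 3.03 in mutant and 2.75 ± 2.92 in interstitium cells, a difference of 2.12. The differences of Col6a2, Col6a3, Col6a5 and Col6a6 were 1.65, 1.93, 1.02 and 1.66. Among those lower, Col4a3 averaged 0.13 ± 0.83 in mutant and 2.35 ± 2.85 in interstitium cells, a difference of -2.23, and Col12a1 1.14 ± 1.79 in mutant and 3.0 ± 1.98 in interstitium cells, a difference of -1.86. Col8a2 and Col4a4 differed by -1.27 and -1.02. The median difference was -0.0029 over the 44 members, -0.03 over the 36 that passed the filter and -0.25 over all tested entries.

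For each of these 9 members the SD between cells of at least 1 of the groups was above the difference. The fibrillar chains Col1a1 (0.95), Col5a1 (0.96), Col1a2 (0.90) and Col3a1 (0.70) stood just under 1 log2 unit higher in mutant cells. All 4 passed it after median-ratio scaling and without cells high in a mitochondrial pseudogene (9 higher, 2 lower under each, against 5 and 4), while Col8a2 and Col4a4 were no longer called lower under either. Of the 4 fibrillar chains, 3 passed once 1 mutant cell with immune and 1 interstitium cell with endothelial markers were left out (8 higher). Among cells with 3000 to 5000 detected genes the calls were 4 higher (Col6a1, Col6a2, Col6a3 and Col6a6) and the same 4 lower. Sex, date and pool differ between these groups and cannot be told apart from the genotype.

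At E13.5, within 1 pool, 5 of 44 members were higher in mutant than in cap cells, all fibrillar: Col1a1, Col1a2, Col3a1, Col5a1 and Col11a1 (background 1.2%). Col1a1 averaged 3.34 ± 2.86 in mutant and 0.88 ± 1.98 in cap cells, a difference of 2.46, and Col1a2 averaged 3.21 ± 2.57 in mutant and 1.54 ± 2.29 in cap cells, a difference of 1.67. Col3a1 differed by 1.72, but the ratio of the group mean RPKM had the other sign (-0.18 on the log2 scale), where the cap mean includes the 1 cell at 303 RPKM. Without that cell, the only E13.5 cap cell with Pdgfra, Col11a1 (1.02) and Col4a2 were no longer called. Col4a1 and Col4a2 were lower, by 1.73 and 1.08, where 23.2% of all entries were lower. The difference of Col4a1 exceeded the SD in mutant cells (1.23) and not that in cap cells (2.32), and Col4a2 was no longer called once the cells with endothelial or ureteric markers were left out. No type VI chain was called: Col6a1 averaged 0.81 ± 1.79 in mutant and 0.58 ± 1.54 in cap cells. The median difference was 0.05 over the 44 members, 0.15 over the 36 that passed the filter and -0.28 over all tested entries. After median-ratio scaling 6 members were called higher, with Col2a1 added, and 1 lower, Col4a1.

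E13.5 mutant cells were mixed. Some had high type I and III transcripts and others little, and 4 of 29 had none of Col1a1, Col1a2 and Col3a1 at 1 RPKM or more. All 29 had at least 1 of the 11 fibrillar chains at that level. The 8 cells with Pdgfra all had Col1a1, against 10 of 21 without, and the mean log2(RPKM + 1) of Col11a1 was 3.56 with and 0.96 without it. Col1a1 was found in 7 of 17 cells with Pax2 and in 11 of 12 without. Six2 and Col2a1 went together to a degree, with Col2a1 in 7 of 9 cells with Six2 and 6 of 20 without.

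By age, no member differed by 1 log2 unit in cap cells and 14 did in mutant cells. No member was called higher (background 2.11%) or lower (background 12.1%) in cap cells of E18.5 than of E13.5, the furthest apart being Col26a1, which averaged 1.64 ± 1.91 at E18.5 and 2.54 ± 2.32 at E13.5, a difference of -0.90. In mutant cells 13 members were higher at E18.5 than at E13.5 (background 5.31%): Col1a1, Col1a2, Col3a1, Col5a2, Col4a1, the same 5 chains of type VI, Col14a1, Col16a1 and Col8a2. Col6a3 averaged 4.58 ± 2.10 at E18.5 and 0.38 ± 1.22 at E13.5, a difference of 4.20, and Col6a1 differed by 4.06. Col2a1 was lower at E18.5, by 1.64 (background 9.15%). The median difference in mutant cells was 0.22 over the 44 members, 0.53 over the 36 that passed the filter and -0.08 over all tested entries, and in cap cells it was 0.0016, 0.0064 and -0.10. Age, pool and date cannot be told apart in the mutant cells, nor age, pool, date and sex in the cap cells.

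Of the 20 enzymes and chaperones that modify collagen chains, 6 were higher and 1 lower in interstitium than in cap, 3 higher and 1 lower in E18.5 mutant than in cap, and 0 higher and 5 lower in E18.5 mutant than in interstitium. Over all tested entries, 4.87% were higher and 2.21% lower in interstitium than in cap, 3.66% and 18.8% in E18.5 mutant than in cap, and 1.64% and 18.6% in E18.5 mutant than in interstitium. Crtap, part of the prolyl 3-hydroxylation complex, averaged 2.70 in E18.5 mutant, 2.88 in interstitium and 1.22 in E18.5 cap cells. P4hb, the β subunit of prolyl 4-hydroxylase, averaged 5.63 in E18.5 mutant and 7.40 in interstitium cells, and Ppib, a prolyl isomerase, 7.17 in E18.5 mutant and 8.46 in interstitium cells. P4ha3, a catalytic subunit of prolyl 4-hydroxylase, was the enzyme called lower than cap in both, with 0.20 in E18.5 mutant, 0.58 in interstitium and 2.70 in E18.5 cap cells. At E13.5, Plod2, a lysyl hydroxylase, averaged 2.90 in mutant and 1.41 in cap cells and was the 1 enzyme called higher (background 1.2%), beside 4 of 20 called lower (background 23.2%).

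Of the 18 genes of processing, crosslinking and fibril assembly, 6 were higher and 1 lower in interstitium than in cap, 7 higher and 1 lower in E18.5 mutant than in cap, and 1 higher and 4 lower in E18.5 mutant than in interstitium. The backgrounds are 4.87% and 2.21%, 3.66% and 18.8%, and 1.64% and 18.6%, so the 4 of 18 lower than interstitium are near the share of all entries. Dcn, decorin, averaged 4.49 in E18.5 mutant, 3.68 in interstitium and 0.64 in E18.5 cap cells. Bmp1, which cleaves the C-propeptide of procollagen, averaged 4.20 in E18.5 mutant, 2.35 in interstitium and 2.25 in E18.5 cap cells, while Pcolce, the enhancer of that cleavage, averaged 2.60 in E18.5 mutant and 3.85 in interstitium cells. At E13.5 none was higher (background 1.2%) and 2 of 18 were lower (background 23.2%) in mutant than in cap cells, Sparc with 5.59 in mutant and 7.37 in cap cells and Pxdn with 1.97 in mutant and 3.06 in cap cells.

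Of the 11 receptors, Ddr2, a receptor kinase for fibrillar collagen, was higher in both E18.5 mutant (2.45) and interstitium cells (2.19) than in cap cells (0.28), and Itgb1, the integrin β1 chain, was higher in interstitium (5.87) than in cap cells (4.68) and lower in E18.5 mutant (4.65) than in interstitium cells. Of the 16 proteases and inhibitors, 5 were higher in interstitium than in cap (background 4.87%) and 6 in E18.5 mutant than in cap (background 3.66%), with none lower (backgrounds 2.21% and 18.8%). Mmp16, a membrane-bound metalloprotease, averaged 4.0 in E18.5 mutant, 2.34 in interstitium and 2.09 in E18.5 cap cells, and Timp1, an inhibitor of such proteases, averaged 0.44 in E18.5 mutant and 1.90 in interstitium cells.

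Between ages, mutant cells of E18.5 were above those of E13.5 in 4 enzymes, 8 assembly genes, 1 receptor and 7 proteases or inhibitors, with none lower in any of these lists (backgrounds 5.31% higher and 9.15% lower). In cap cells by age the counts were 2 higher and 2 lower, 2 and 1, 1 and 0, and 0 and 1 in the same order of lists (backgrounds 2.11% higher and 12.1% lower). Sparc, which binds fibrillar collagen, averaged 8.55 in E18.5 mutant and 5.59 in E13.5 mutant cells. No receptor was called between mutant and cap cells of E13.5, and Timp2 and Ctsb were the 2 of 16 proteases or inhibitors called lower there (background 23.2%), Timp2 with 0.77 in mutant and 2.82 in cap cells and Ctsb with 2.38 in mutant and 4.34 in cap cells.

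The genes outside the members most like Col1a1 over the 71 interstitium cells, among 4285 genes detected in 50% or more of them, were Plac9b, Gm9780, Plac9a, Meg3 and Ahnak, with Spearman's rho of 0.675, 0.675, 0.674, 0.617 and 0.587. Plac9a and Plac9b are near-identical copies, so these may count the same reads. For Col4a1 they were Arhgef15, Fbn2, Esp38, Ptpn7 and Klhl41, at 0.513, 0.463, 0.447, 0.446 and 0.431. Only members detected in 50% or more of these cells were ranked. Among them, Col1a2 (0.695), Col6a1 (0.656) and Col3a1 (0.640) were closest to Col1a1, while Col4a1 reached no more than 0.256, with Col1a1. These points share the cells' detection rate and library scale.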

How the data were processed

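Cells were grouped by the labels' source name, cell type, genotype and age. The authors deposited 1 table of RPKM per gene for 237 cells. Reads were aligned with TopHat to mm10, per the submitters' processing notes; the version, gene models and counting rule are not given in the sources used here. Ratios of low values between cells were sorted into bins 0.02 wide on the log2 scale to look for steps of whole reads. A median of 13.7% fell in the top 3 bins (186 cell pairs). No reference share was computed, so whether such steps occur was not settled. With RPKM and no read counts, no count test was run. A cell whose source name says cap and whose cell type says interstitium entered no comparison. Members, classes, gene lists and markers were chosen with earlier results of these data known. Values were taken as log2(RPKM + 1). The entries tested were at 1 RPKM or more in at least 5 grouped cells. All members may be named: those detected in 20% of the cells of a group are given in full, the others by counts. List genes named are among the 3 furthest apart in each direction, and likeness is over interstitium cells. The 4 pathway lists used the table's symbols, and all members matched. No doublet caller was used, and no 2 cells were near-identical (highest correlation 0.809). Upper limits for 0 cells are 3 cells of the group. Neighbour strands are from GENCODE M21 and promoters from RefSeq. The steps were tested on simulated data. Alternatives covered the pseudocount (0.1 and 10), scaling, detection limit, low-value filter, cells of like gene number, pseudogene-high cells, pool 2 and, added after seeing the data, cells with markers of other types. Python 3.11.15, numpy 2.4.6, pandas 2.3.3, scipy 1.17.1 and matplotlib 3.10.9 were used.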

Additional observations from a re-analysis of the deposited data

How the results depend on the processing

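Counts are of 44 members, higher and then lower. As reported they were 13 and 1 (interstitium minus cap), 13 and 1 (mutant minus cap, E18.5), 5 and 4 (mutant minus interstitium), 5 and 2 (mutant minus cap, E13.5), 0 and 0 (cap, E18.5 minus E13.5) and 13 and 1 (mutant, E18.5 minus E13.5). In that order of comparisons, a pseudocount of 10 gave 7 and 0, 7 and 0, 2 and 1, 1 and 0, 0 and 0, and 6 and 0. A pseudocount of 0.1 gave 17 and 1, 18 and 6, 9 and 8, 8 and 4, 3 and 1, and 17 and 5. The log2 ratio of group mean RPKM gave 21 and 6, 24 and 7, 12 and 10, 16 and 7, 14 and 7, and 24 and 5; it also reversed Col3a1 in mutant minus cap at E13.5 (-0.18). Median-ratio scaling gave 9 and 2 for mutant minus interstitium and 6 and 1 for mutant minus cap at E13.5. Leaving out pseudogene-high cells gave 9 and 2 for mutant minus interstitium, 1 higher in cap by age (Col2a1) and 2 lower in mutant by age (Col11a1 added); cells with 3000 to 5000 genes likewise gave 2 lower in mutant by age. Leaving out wild-type cells with a marker of the other lineage gave 4 and 1 for mutant minus cap at E13.5. Leaving out endothelial, immune and ureteric cells gave 8 higher for mutant minus interstitium, 1 lower for mutant minus cap at E13.5, 1 lower in cap by age (Col26a1) and 2 lower in mutant by age. Every other count was within 1.5 times its value as reported. Median members per cell with any value above 0 were 16, 17, 9.5, 11 and 9 in E18.5 mutant, interstitium, E18.5 cap, E13.5 mutant and E13.5 cap cells. Of single members, 1352 differences shifted by less than the larger SD between cells of the 2 groups, 78 shifted further and 1 reversed. A reversal was counted only where the reported difference was 1 log2 unit or more. The SD is wide, so a call can be lost within it. Of the shares, 170 kept within their confidence interval and 100 moved. Cells with 3000 to 5000 genes were not run for comparisons with E13.5 cap, which has 2 such cells. No paired analysis was possible because no number or label ties a cell of one group to a cell of another, and the pools that some groups share hold many cells each. Pool 2 alone gave 13 and 1 for interstitium minus cap. Depth per cell is unknown, so an undetected transcript is not shown to be absent, and each group stands for 1 sample, so embryo, date and genotype cannot be told apart.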

Other observations

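The cell that entered no comparison, labelled E13.5 and wild type, had Col2a1 at 15.4 RPKM and Col4a5 at 1.91 RPKM. All other collagen genes were below 1 RPKM in it, Col1a1 at 0.0601 and Col3a1 at 0.0353 RPKM. Its label does not say to which lineage it belongs.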
